A study of Danio rerio with 12 samples.

Results

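The comparison set 3 arrays of zebrafish embryos injected with morpholinos against PCSK7 and p53 against 3 arrays of embryos injected with a control morpholino, all collected at 24 h post fertilization. They are 6 of the 12 arrays in the series, whose other 6 hold the same injections at 6 h. All embryos came from natural crosses of wild-type AB fish and received 0.25 to 1.0 pmol per morpholino into the yolk at the 1 to 4 cell stage. They were kept at 28.5 °C, and each array carried Cy3-labelled RNA from a pool of 18 to 35 whole embryos. The control embryos did not receive the p53 morpholino, so every difference below holds the effect of both morpholinos. The labels do not tell whether the 3 pools of a group were separate clutches, so the p-values reflect only the spread between pools, which may be partly technical. The comparison covers the 35062 of 43603 non-control probes whose signal was well above background on every array of 1 group or both. Of these, 23893 carried a gene name, for 12519 genes.

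PCSK7 is a proprotein convertase, a protease of the secretory pathway that cuts precursor proteins after basic residues, as furin does. TGF-beta 1, a growth factor that acts on matrix production, growth and differentiation, is made as such a precursor, and tgfb1a, the zebrafish gene for it, stands in the title of the series. A morpholino is an antisense oligonucleotide that blocks translation or splicing of a transcript without degrading it. Morpholinos against p53, the transcription factor that answers DNA damage and other stress, are commonly added to limit cell death caused by injection. At 24 h a zebrafish embryo ends its segmentation, its heart begins to beat, its lens fibres form and its first pigment cells darken.

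The arrays of PCSK7 and p53 morpholino embryos had a 75th percentile of signal of 1021.6 to 1087.4, against 695.4 to 993.3 on control arrays. Probes well above background made up 81.0 to 82.3% on knockdown arrays and 77.0 to 81.8% on control arrays. Arrays of the same group correlated at 0.9966 to 0.9976 over the probes, and arrays of different groups at 0.9803 to 0.9861. The knockdown arrays lay on 1 slide of 1 scan session, while the control arrays were spread over 3 slides of another session, read with another software build. In every result below, the effect of slide, session or build and that of the morpholinos cannot be told apart. No probe (0) carried the name pcsk7, so the level of the targeted transcript is not analysed here.

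Values below are given per array as relative signal, the spot's signal divided by the 75th percentile of its array, and as log2 changes of knockdown over control embryos with the standard error (SE) of the fit. With Benjamini-Hochberg adjusted p under 0.05 in limma, 5964 genes differed, which is 47.6% of the 12519 genes. Of these, 2720 (21.7%) were higher and 3244 (25.9%) lower in knockdown embryos. Changes of at least 2-fold were found for 308 genes higher and 402 genes lower. These include genes kept because only 1 group was above background, whose folds rest on dim signals. Among the 12039 genes above background on all 6 arrays, 200 were higher and 358 lower by at least 2-fold. Over probes, 16417 (46.8%) differed, 7527 higher and 8890 lower, so that 45.8% of the calls were rises. That share ran from 35.7% with another background correction (normexp, capped) to 51.4% under quantile normalization and 52% on the authors' deposited table, and quantile normalization gave 3057 genes higher and 2891 lower. The groups did not overlap for 64.4% of genes. A call alone therefore does not set a gene apart, and every gene list below is read against the shares of 21.7% higher and 25.9% lower and against the median change of all genes, -0.03 on the log2 scale. The RNA came from whole embryos, in which fewer cells of a type and less RNA per cell cannot be told apart.

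**Figure D1:**
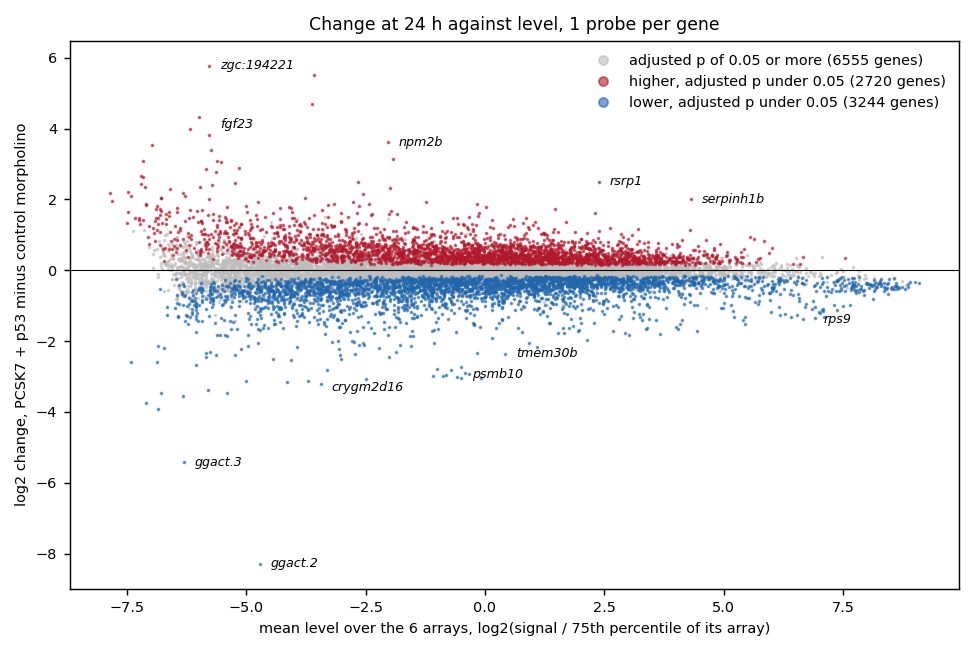
Log2 change of knockdown over control embryos (vertical axis) against the mean level over the 6 arrays (horizontal axis, log2 of relative signal) for 12519 genes, each shown by its brightest probe. The 2720 higher genes are red, the 3244 lower genes blue, and most changes are small beside those of the genes written in the plot, such as npm2b, ggact.2 and ggact.3.

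The transcripts that rose most had varied known roles, in the egg, in inflammation and in protein folding. Of the 20 largest rises among genes above background on all 6 arrays, 19 are described. The egg gene npm2b, a nucleoplasmin that handles sperm and oocyte chromatin, had 1.06, 0.784 and 0.745 in knockdown embryos and 0.0728, 0.0689 and 0.0679 in control embryos (12.2-fold). The gene mala.1 had 0.899, 0.706 and 0.751 in knockdown embryos and 0.0895, 0.085 and 0.0932 in control embryos (8.76-fold). That every knockdown array lay above every control array follows from the choice of these genes, and the groups did not overlap for 64.4% of all genes.

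Inflammatory and stress genes stood among the next rises. The 5-lipoxygenase gene alox5b.3, whose product starts the synthesis of leukotrienes, rose 5.66-fold (SE 0.28 on the log2 scale), and ebi3, a cytokine subunit, 3.69-fold (SE 0.17), each on both probes. The co-chaperone dnajb1b had 1.72, 1.72 and 1.66 in knockdown embryos, against 0.472, 0.455 and 0.468 in control embryos (3.65-fold, SE 0.06). The collagen chaperone serpinh1b, which helps procollagen fold in the endoplasmic reticulum, had 39.7, 43.4 and 36.6 in knockdown embryos, against 9.96, 10.1 and 9.76 in control embryos (4.01-fold), with all 3 probes higher. RNA-processing genes were represented by rsrp1, an arginine- and serine-rich protein with 14.4, 15.2 and 8.77 in knockdown embryos and 2.13, 2.25 and 2.23 in control embryos (5.64-fold on 3 of 3 probes), and by rbm48 (3.44-fold), an RNA-binding protein. The yolk precursor gene vtg7 rose 3.65-fold, and tph2, the enzyme of serotonin synthesis in neurons, 3.47-fold, each on 4 of 4 probes.

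The other leading rises were ankar (4.44-fold), the blood repressor gfi1aa (4.13-fold), the helicase fbxo18 (3.83-fold), the ubiquitin ligase genes asb1 and rnf25 (3.78-fold each), the connexin gjd6 (3.56-fold), tm4sf21b (3.55-fold), eva1bb (3.53-fold) and the lens gene crygs4 (3.36-fold). Their adjusted p ranged down to 1.75e-07 for fbxo18 and up to 0.00959 for gfi1aa, which had 0.206, 0.15 and 0.108 in knockdown embryos, against 0.0301, 0.0397 and 0.0398 in control embryos. These genes were chosen among those whose groups do not overlap.

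Among the falls of genes above background on all 6 arrays, gamma-M crystallins, the structural proteins of the fish lens, came first. Among such genes with a call whose groups do not overlap there were 15 gamma-M crystallins, whatever the size of their change. Only the largest 2 falls of these are described. The gene crygm2d16 had 0.0141, 0.0364 and 0.0542 in knockdown embryos, against 0.361, 0.284 and 0.217 in control embryos (9.27-fold lower, log2 -3.21, SE 0.43, adjusted p = 0.000214). The gene crygmxl2 was 8.77-fold lower.

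Outside the lens the largest falls among these genes were those of a calpain and of a proteasome subunit, while genes with only a bound are given further on. The calpain gene capn12, a calcium-dependent protease, had 0.0375, 0.0354 and 0.0402 in knockdown embryos, against 0.165, 0.29 and 0.4 in control embryos (7.11-fold lower on this probe, with all 3 probes lower). The immunoproteasome subunit psmb10 had 0.362, 0.255 and 0.222 in knockdown embryos, against 1.42, 1.8 and 2.37 in control embryos (6.67-fold lower, SE 0.20, 3 of 3 probes). Membrane and transport genes followed. The flippase subunit tmem30b had 0.593, 0.532 and 0.663 in knockdown embryos, against 3.13, 2.97 and 3.03 in control embryos (5.13-fold lower), and the 4 probes ranged from log2 -4.29 to -1.64. The mitochondrial ADP/ATP carrier slc25a4 was 5.12-fold lower, and dnajc19, of the mitochondrial import motor, 5.05-fold lower with knockdown values that spread from 0.155 to 0.861.

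Several immune and sensory genes followed. Lysozyme, lyz, which granulocytes and macrophages make, had 0.0746, 0.12 and 0.112 in knockdown embryos, against 0.495, 0.467 and 0.43 in control embryos (4.62-fold lower, SE 0.29, adjusted p = 0.000203). The complement regulator cfhl1 was 4.36-fold lower and the finTRIM gene ftr91 4.51-fold lower. The ultraviolet cone opsin opn1sw1 had 0.152, 0.199 and 0.142 in knockdown embryos, against 0.734, 0.597 and 0.836 in control embryos (4.4-fold lower), and pde6hb, a phosphodiesterase subunit of cones, was 4.19-fold lower on its brighter probe, with the other at log2 -0.23. The exosome cofactor skic8 had 0.992, 0.908 and 1.15 in knockdown embryos and 4.4, 4.66 and 4.51 in control embryos (4.47-fold lower on this probe, and both probes fell). The others were cyb561d2 (5.8-fold), spata6l (5.24-fold), apoda.1 (4.44-fold), tmem130 (4.33-fold) and the cytochrome P450 cyp2aa1 (4.31-fold). Probes disagreed for jac6, where 1 fell (log2 -2.52) and the other rose (1.48), and for brf1a, a subunit of the RNA polymerase III initiation factor, where 1 fell (-2.45) and 2 rose (up to 0.83). Averaged over their probes, jac6 (adjusted p = 0.0537) and brf1a (adjusted p = 0.0898) lost the call.

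**Figure D2:**
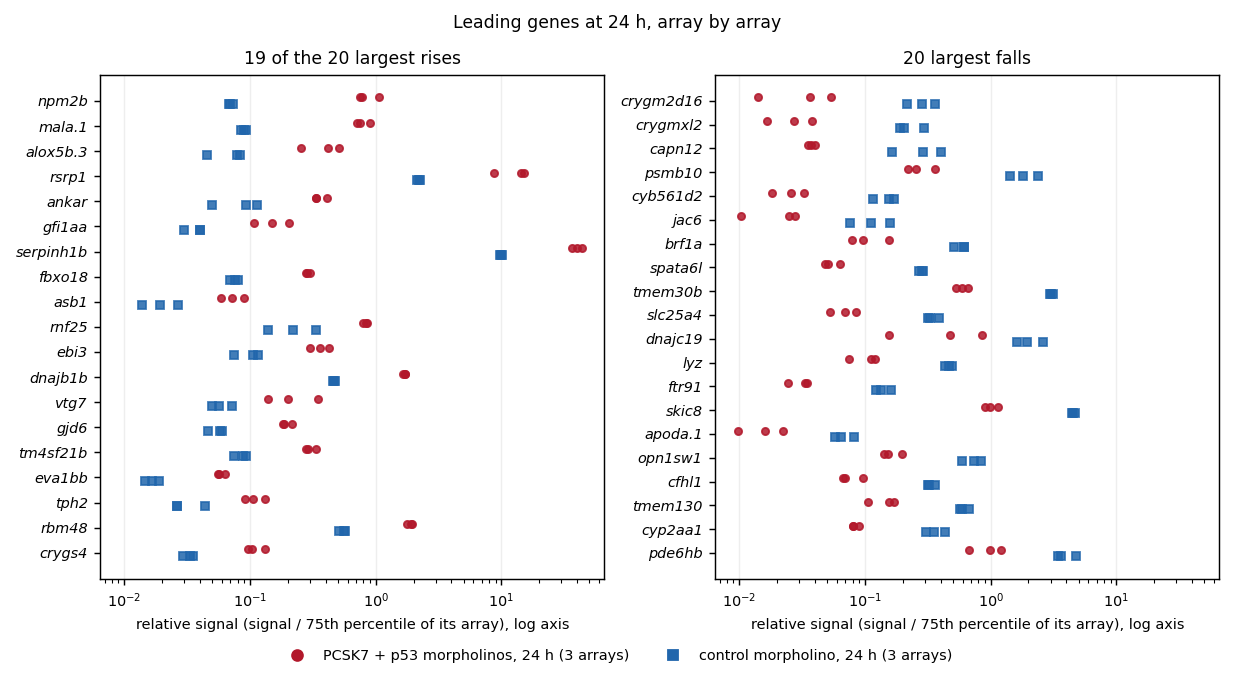
Relative signal on a log axis of every array for 19 of the 20 largest rises (left panel) and the 20 largest falls (right panel, with the largest 2 gamma-M crystallins alone standing for that family) among named genes above background on all 6 arrays. Red circles are the 3 PCSK7 and p53 morpholino arrays and blue squares the 3 control morpholino arrays, and the groups do not overlap for any gene shown, by the rule that chose them.

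Some genes were above background in only 1 of the groups, so that their change has only a bound, the mean of the bright group over, in the other, whichever is higher of the dimmest signal still called above background and the dim probe's own. Of the 5964 genes with a call, 62 with a bound above 1-fold were above background on all 3 knockdown arrays and on 0 control arrays. In the other direction there were 16. Whatever the call, 1820 of the 35062 kept probes were above background on all knockdown arrays but not on all control arrays, and 336 the other way round. The knockdown arrays were brighter than the control arrays, as given above, and what part this has in these numbers was not tested. Led by zgc:194221 (at least 13.5-fold higher, on both probes) and zgc:195077 (at least 7.06-fold higher), the genes seen in knockdown embryos alone included fgf23, an FGF hormone that controls phosphate (at least 6.87-fold), macrod1, an enzyme that removes ADP-ribose (6.23-fold), the MHC class I gene mhc1uba (6.19-fold), the lipoxygenase alox5b.2 (5.73-fold), the neuronal transcription factor neurod2 (5.52-fold) and the synaptotagmin syt5b (4.46-fold). For fgf23 the knockdown values were 0.0591, 0.079 and 0.0685, against 0.00596, 0.00299 and 0.00644 in control embryos, which were not well above background. A gene outside the rule for naming, si:ch211-132b12.1, was chosen after its values were seen. It had 0.62, 0.47 and 0.608 in knockdown embryos, against 0.0212, 0.0138 and 0.00652 in control embryos, of which 2 arrays were above background (at least 36.5-fold higher).

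The genes seen in control embryos alone were led by members of 1 family. The gene ggact.2, a gamma-glutamylamine cyclotransferase that breaks down cross-linked peptides, had 0.00228, 0.00206 and 0.00215 in knockdown embryos, none well above background, against 0.622, 0.533 and 0.923 in control embryos (at least 94.2-fold lower, adjusted p = 6.66e-09). Its relative ggact.3 was at least 11.6-fold lower. The lens genes crygm2c (7.44-fold) and crygm2b (5.95-fold), the acyl-CoA synthetase acsm3 (5.03-fold), the metalloprotease mep1a.2 (4.72-fold), the defensin defbl1 (4.67-fold) and si:dkey-111e8.4 (4.24-fold) followed. The third ggact gene on the array, ggact.1, had probes that disagreed, 1 at log2 0.31 and the other at -4.85.

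The TGF-beta ligand tgfb1a did not pass at 24 h on the brighter of its 2 probes (log2 -0.20, adjusted p = 0.454). The other probe had a log2 change of -0.73, and its adjusted p is not given here.

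Among the proprotein convertases and their partners, 4 of 7 measured genes were lower, 0 higher and 3 did not pass (57.1% lower, against 25.9% of all genes; median log2 -0.39). Furin itself has 2 paralogs in fish, and both were lower. The gene furinb had 1.88, 2.47 and 2.24 in knockdown embryos, against 5.36, 5.2 and 6.41 in control embryos (2.58-fold lower, SE 0.11, adjusted p = 1.59e-05), though its other probe gave -0.31 with no call. The gene furina had 0.56, 0.626 and 0.567 in knockdown embryos, against 0.735, 0.793 and 0.855 in control embryos (1.36-fold lower). The site-1 protease mbtps1, which activates membrane-bound transcription factors, was lower (log2 -0.39, adjusted p = 0.0159, and 0.0565 without control replicate 3 or 0.0545 without knockdown replicate 3). The inhibitor gene pcsk1nl had -0.24 and lost its call under 10 of 17 alternatives. The hormone convertase pcsk2 (-0.43), its chaperone scg5 (-0.23) and pcsk5b (-0.16) did not pass.

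Of the TGF-beta ligands, receptors, Smads and binding proteins, 13 of 37 measured genes were lower and 2 higher (35.1% and 5.41%; median log2 -0.20). The list holds the ligand genes tgfb2 (-0.27, lower) and tgfb3 (0.12, not passed). The Nodal ligand ndr1 had 0.00984, 0.00618 and 0.0152 in knockdown embryos, of which 2 arrays were above background, against 0.0194, 0.0183 and 0.0261 in control embryos (log2 -1.11, on 1 of 2 probes). The decoy receptor bambib (-0.57), the repressor skilb (-0.48) and gdf11 (-0.46) were lower as well, but skilb lost its call under 10 and gdf11 under 5 of 17 alternatives. Some activin receptor and Smad genes beyond the naming rule were also lower, chosen here after their values were seen and for that direction. They were smad4a (-0.46), smad3b (-0.36), acvr1ba (-0.45), acvr2aa (-0.43) and acvr2ba (-0.40). Their calls were not followed under the alternatives, and 22 of the 37 genes of the list did not pass. The rise of mstnb, myostatin, rested on 1 control array above background and was lost under 9 alternatives.

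Of the genes that TGF-beta is known to induce, 10 of 39 were higher and 8 lower (median -0.02, a sign that turned with the scaling). These shares (25.6% and 20.5%) were near the 21.7% and 25.9% of all genes. Smooth muscle actin acta2 had 0.481, 0.505 and 0.434 in knockdown embryos, against 0.194, 0.214 and 0.205 in control embryos (2.31-fold higher, adjusted p = 2.89e-05). The matricellular genes ccn2a (1.75-fold, SE 0.09) and ccn2b (1.97-fold) were higher, ccn2b with an adjusted p of 0.0505 on the authors' deposited table. The collagen gene col1a2 was lower (log2 -0.99, adjusted p = 0.0159), but not under quantile normalization (adjusted p = 0.228). The collagen list as a whole had 13 of 45 genes lower, 3 higher and 29 without a call (28.9% and 6.67%; median -0.12). Its 3 higher genes were serpinh1b and the procollagen proteases bmp1a and bmp1b, of which bmp1b lost its call under 4 of 17 alternatives and bmp1a under normexp (adjusted p = 0.0526).

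In the BMP pathway, which patterns the ventral side of the embryo, 11 of 50 genes were higher and 9 lower (22% and 18%). The largest rise was that of fsta, follistatin, which binds activin and BMP ligands. It had 9.78, 7.85 and 8.55 in knockdown embryos, against 2.84, 2.91 and 2.7 in control embryos (3.09-fold, SE 0.30 on the log2 scale, adjusted p = 0.00161). The ventral repressor ved was 2.1-fold higher (adjusted p = 0.000174), while fstl1b (-0.70) and smad1 (-0.48, lost under 6 of 16 alternatives) were lower. Of 105 Wnt, FGF, hedgehog, retinoic acid and Notch genes, 16 were higher and 26 lower (15.2% and 24.8%). The FGF receptor fgfr1a had 1.73, 2.56 and 2.21 in knockdown embryos, against 6.67, 6.33 and 8.35 in control embryos (3.3-fold lower), a change seen on 1 of 3 probes, with another at log2 -0.03. The hedgehog effector gli3 was 2.01-fold lower and the non-canonical ligand wnt11f2 2.1-fold higher.

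The gamma-M crystallins and the other crystallins had the lowest median changes of the 54 lists. Of the 21 measured gamma-M crystallins 19 were lower, 0 higher and 2 did not pass, with a median log2 change of -2.98. Only 17 of the 21 were above background on all 6 arrays, and the fitted changes of the others rest on dim signals. The lowest fitted value, -3.55, is that of crygm2b, which has only a bound. The sequences of gamma-M crystallins are so alike that a probe may read several of these paralogs, and the 21 are not independent measurements. The 2 without a call were crygm2d21 (-0.38) and crygm4 (-0.07). Over 6 ways of scaling the arrays the median stayed at or below -2.3, as the plot of scalings shows. Of the 19 other crystallins 14 were lower and 4 higher (73.7% and 21.1%; median -0.95). The beta crystallin cryba1l1 had 0.74, 0.962 and 1.15 in knockdown embryos, against 3.6, 2.88 and 2.97 in control embryos (3.35-fold lower, SE 0.18). The genes crygn2 and crybb1 were 3.12-fold and 3.04-fold lower. Against this direction, crygs4 had 0.131, 0.0963 and 0.103 in knockdown embryos and 0.0351, 0.0334 and 0.0291 in control embryos, and crygn1 was 2.06-fold higher (adjusted p = 0.00243).

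The genes that specify the lens or form its membranes did not follow the crystallins as a list, with 6 of 16 lower and 3 higher (median 0.01). The water channel mipa, the main membrane protein of lens fibres, was lower (log2 -1.23), with its call lost without knockdown replicate 1 (adjusted p = 0.0609). Eye field and retina factors, the transcription factors that set up the eye, were lower in 2 of 28 and higher in 7 (7.14% and 25%; median 0.28). The gene six3b had 5.46, 5.92 and 5.63 in knockdown embryos, against 3.36, 3.59 and 3.25 in control embryos (1.67-fold higher), and pax6a, which directs eye formation, was 1.41-fold higher on 4 of 6 probes. The earliest eye gene, rx3, was above background on 2 of 3 control arrays and lost its call under 7 alternatives (log2 1.37, largest adjusted p = 0.152). The 2 lower members were pax6b (-0.59, call lost under 6 of 17 alternatives, adjusted p up to 0.351) and the melanosome gene pmela (-1.01).

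**Figure D3:**
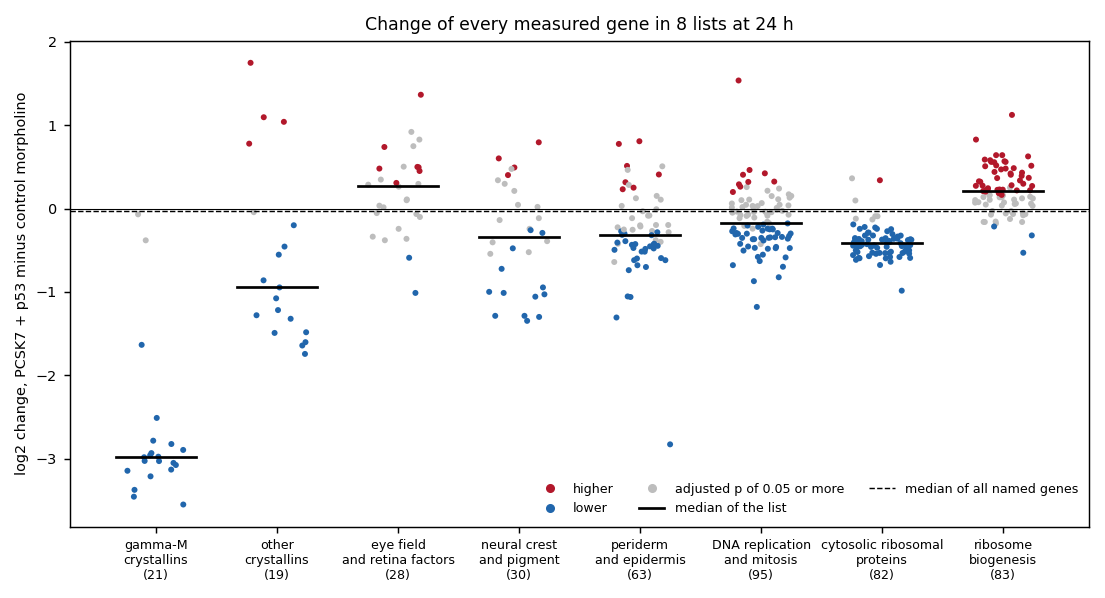
Log2 change of knockdown over control embryos for every measured gene of 8 lists, 1 column per list with its number of genes in brackets. The black bars are list medians, from -2.98 for gamma-M crystallins to 0.28 for eye field and retina factors, and the dashed line is the median of all named genes.

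Pigment genes made up most of the falls in the neural crest list, where 13 of 30 genes were lower and 4 higher (43.3% and 13.3%; median -0.34). Tyrosinase, tyr, the first enzyme of melanin synthesis, had 0.0194, 0.0214 and 0.023 in knockdown embryos, against 0.0462, 0.0554 and 0.0542 in control embryos (2.44-fold lower, adjusted p = 8.89e-06). The melanosome enzyme tyrp1b had 1.81, 2.86 and 3.02 in knockdown embryos, against 6.62, 6.34 and 6.14 in control embryos (2.54-fold lower). The melanosome exchanger slc24a5 was 2.46-fold lower (SE 0.09). The pteridine enzyme gch2, of yellow pigment cells, was 2.44-fold lower, but without a call under quantile normalization (adjusted p = 0.0644). The early crest regulators were split. The genes snai1b (0.80, but no call under normexp, adjusted p = 0.188), snai2 (0.60, on 1 of 4 probes), foxd3 (0.49) and sox9b (0.40, call lost under 6 of 16 alternatives) were higher. The genes tfap2e (-0.999), tfap2c (-0.48), pax7a (-0.29, call lost under 4 of 16 alternatives) and tfap2a (-0.26) were lower. Of these, tfap2c and tfap2a are named after their values were seen. The gene mitfa, the master regulator of melanocytes, did not pass (-0.24, adjusted p = 0.529), a value added after it was seen.

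Of the epidermal genes more were lower than higher, 30 of 63 against 7 (47.6% and 11.1%; median -0.32). Beside capn12 they included an integrin of the hemidesmosome, which ties basal cells to the basement membrane, and a laminin chain. The integrin itgb4 had 0.14, 0.196 and 0.199 in knockdown embryos, against 0.383, 0.464 and 0.465 in control embryos (2.47-fold lower, 2 of 3 probes). The laminin chain lama5 had 1.52, 1.57 and 1.43 in knockdown embryos, against 2.72, 3.06 and 3.67 in control embryos (2.08-fold lower, adjusted p = 0.00023). The annexin anxa1b was 2.09-fold lower (SE 0.13). Higher members included krt93 (0.81, call lost under 7 alternatives) and ovol1a (0.78), for which 1 of 3 probes rose and 1 fell. Quantile normalization left 20 lower and 9 higher.

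The wider matrix list had 23 of 60 genes lower and 6 higher (38.3% and 10%; median -0.22). The integrin itgb3a was 2.53-fold lower (adjusted p = 0.000429), and itga3b 2.19-fold lower, with adjusted p = 0.0552 without knockdown replicate 1. The hyaluronan link protein hapln4 was above background only in knockdown embryos. Ionocytes and mucous cells of the skin had 6 of 23 lower and 1 higher (26.1% and 4.35%). The share of lower genes was near the 25.9% of all genes. The largest falls among them were those of the sodium pump subunit atp1a1a.2 (2.2-fold lower) and pvalb8 (2.16-fold lower). Fin genes had 4 of 28 lower and 2 higher, among them and2, an actinodin of the fin fold (1.99-fold lower). Hatching gland genes had 5 of 15 lower and 3 higher, and matrix proteases and inhibitors 6 of 27 lower and 5 higher.

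Blood cell genes were split. White blood cell genes were lower in 3 of 30 and higher in 7 (10% and 23.3%), and by the normexp alternative 9 were higher and 8 lower, with the sign of the median turned. Genes of neutrophils and macrophages stood on both sides. Beside lyz, the neutrophil peroxidase mpx had 0.013, 0.0147 and 0.0183 in knockdown embryos, against 0.0226, 0.024 and 0.0256 in control embryos (1.59-fold lower), and mfap4.1 was 1.66-fold lower. The lymphoid factor ikzf1 had 0.106, 0.11 and 0.0996 in knockdown embryos, against 0.0515, 0.0394 and 0.0405 in control embryos (2.41-fold higher, adjusted p = 1.82e-05). The matrix protease mmp9 (1.72-fold), the macrophage factor irf8 (1.57-fold) and the cathepsin ctsl.1 (1.74-fold) were higher too, but mmp9 lost its call under 2 and the other 2 under 4 of 17 alternatives. Of the 42 red cell genes 7 were higher and 8 lower (16.7% and 19%). The Rh protein rhd had 0.186, 0.306 and 0.33 in knockdown embryos, against 0.863, 0.747 and 0.999 in control embryos (3.25-fold lower), and the anion exchanger slc4a1a was 1.82-fold lower. The beta globin probes gave both directions, with hbba1 2.62-fold higher (2 control arrays above background) and hbba2 2.87-fold lower on 1 probe and at log2 1.26 on the other. Globin paralogs are close in sequence, so these probes may read each other's transcript. Endothelial genes had 8 of 38 lower and 3 higher (21.1% and 7.89%, against 25.9% and 21.7% of all genes). The largest fall among them was that of efnb2a (1.79-fold lower), a ligand of arteries.

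Of 90 muscle genes 16 were higher and 16 lower (17.8% each), but 24 and 12 on the authors' deposited table and 19 and 11 under quantile normalization. Only the 4 largest changes with a call in each direction are described, and the falls were those of parvalbumin genes and a calcium pump gene. The parvalbumin pvalb1 had 2.04, 3.41 and 3.6 in knockdown embryos, against 8.8, 7.4 and 8.55 in control embryos (2.81-fold lower, SE 0.19), pvalb3 was 2.2-fold lower on 2 of 3 probes, and the calcium pump atp2a1l 2.33-fold lower. The gene pvalb2 was 2.49-fold lower but not under quantile normalization (adjusted p = 0.163). The rises were those of actn2b, tnnc2.1, trim54 and myhz2. The actinin gene actn2b had 1.25, 1.29 and 0.707 in knockdown embryos, against 0.4, 0.375 and 0.36 in control embryos (2.77-fold higher). Troponin C tnnc2.1 was 2.34-fold and trim54 2.25-fold higher, while myhz2, a fast myosin, was 2.28-fold higher with the call lost under 5 alternatives. Somite and myogenic factors had 9 of 47 higher and 4 lower, among them the segmentation repressor her12, which was 1.85-fold lower.

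Heart genes were lower in 0 of 25 and higher in 3, while 22 did not pass (median 0.18), and by the normexp alternative 9 were higher and 5 lower. The endoderm and heart factor gata6 had 6.04, 4.86 and 5.28 in knockdown embryos, against 2.28, 2.66 and 2.7 in control embryos (2.11-fold higher, 2 of 3 probes). The membrane protein popdc2 was 1.65-fold higher on 1 of 2 probes. In the endoderm, liver and pancreas list 10 of 48 were higher and 6 lower, with the liver glycoprotein ahsg1 2.6-fold higher on 1 of 3 probes. The pancreatic protease gene prss1 was lower by 0.47 on the log2 scale on 1 of 2 probes. Of 29 kidney genes 7 were higher and 7 lower, of 49 notochord and floor plate genes 11 and 10, and of 27 yolk lipid carriers 2 and 6. The yolk list turned with the scaling, with 5 higher and 3 lower under quantile normalization and 4 and 12 under normexp.

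In the nervous system most markers did not pass. Brain region factors had 4 of 47 higher and 4 lower (8.51% each), with the forebrain genes emx3 (1.76-fold lower) and tbr1b (1.65-fold lower on 1 of 2 probes) against pax2a of the midbrain boundary (1.64-fold higher, adjusted p = 0.2 under quantile normalization). Hox genes, which set positions along the body axis, had 6 of 47 higher and 3 lower, but 17 and 7 under normexp and 13 and 7 with the replicate block. The gene hoxb4a was 1.69-fold higher, and hoxc13b (1.95-fold), hoxb13a (1.68-fold) and hoxa1a (1.36-fold) were lower, but hoxa1a lost its call under 8 of 17 alternatives. Neuron genes had 10 of 49 lower and 5 higher (20.4% and 10.2%), where the synaptic gene cplx2b had 0.169, 0.196 and 0.174 in knockdown embryos, against 0.418, 0.452 and 0.491 in control embryos (2.53-fold lower). Neural progenitors had 6 of 32 each way, with the proneural gene neurog1 1.59-fold higher. Glia genes had 4 of 16 lower and 1 higher, but 3 lower and 4 higher under quantile normalization. Their 25% lower was near the 25.9% of all genes, and 6.25% were higher. The largest fall among them was that of the myelin proteolipid plp1a (2.81-fold lower on this probe, 6 of 7 probes lower). Of 31 ear and lateral line genes 8 were higher and 5 lower, with the otolith gene otop1 1.98-fold higher.

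**Figure D4:**
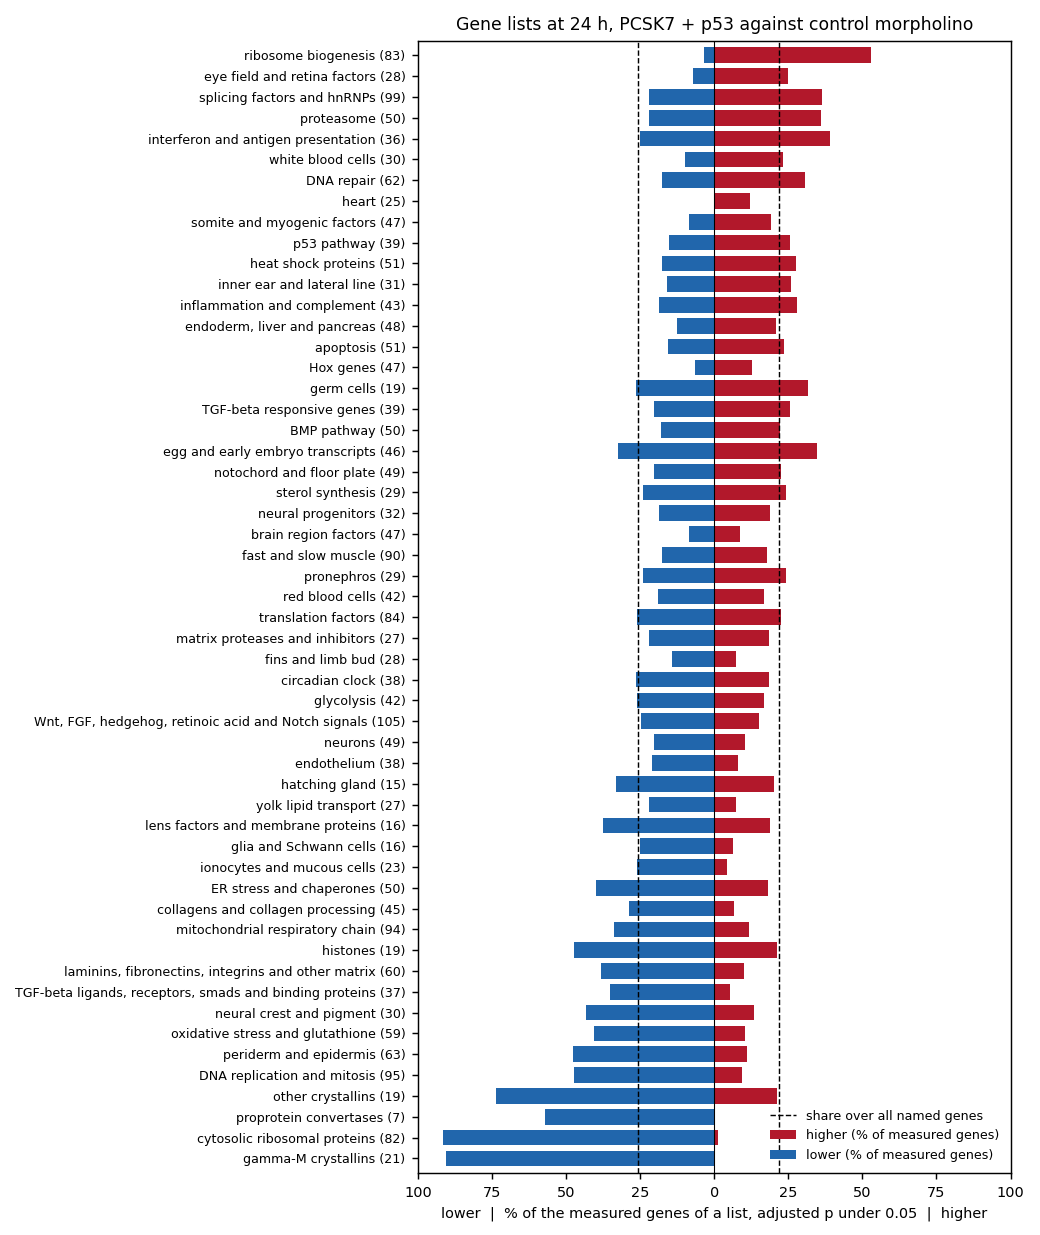
Share of the measured genes of each of 54 lists that were higher (red, to the right) or lower (blue, to the left) in knockdown embryos, with the number of measured genes in brackets. The dashed lines are the shares of all named genes, 21.7% higher and 25.9% lower. Ribosome biogenesis (53% higher) passed the line for higher genes by most. Cytosolic ribosomal proteins (91.5% lower), gamma-M crystallins (90.5%) and other crystallins (73.7%) passed the line for lower genes by most.

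The p53 pathway had 10 of 39 genes higher and 6 lower (25.6% and 15.4%, against 21.7% and 25.9% of all genes). The damage-response gene gadd45ba had 0.507, 0.467 and 0.46 in knockdown embryos, against 0.296, 0.292 and 0.224 in control embryos (1.78-fold higher). The kinase plk3 was 1.64-fold higher, and the paralogs tigara and tigarb, which lower glycolytic flux, were 1.55-fold higher and 2.07-fold lower. The p53 inhibitor mdm2, looked at after its value was seen, was 1.39-fold higher (adjusted p = 0.0118). In the apoptosis list 12 of 51 were higher and 8 lower, but 7 and 12 under normexp. The initiator caspase casp9 had 0.216, 0.228 and 0.217 in knockdown embryos, against 0.474, 0.453 and 0.509 in control embryos (2.17-fold lower, adjusted p = 3.88e-06). The inhibitor birc7 was 2.77-fold lower and birc5b, survivin, 1.82-fold higher. DNA repair genes had 19 of 62 higher and 11 lower (30.6% and 17.7%), where the Fanconi genes fancm (2.65-fold lower) and fancg (1.95-fold higher) differed in direction.

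Antigen presentation genes changed strongly in both directions. Of 36 interferon and antigen presentation genes 14 were higher and 9 lower (38.9% and 25%; median 0.11, a sign that turned under normexp). Of the class I molecules, mhc1uba was seen in knockdown embryos alone, while mhc1laa had 0.145, 0.132 and 0.146 in knockdown embryos, against 0.316, 0.365 and 0.324 in control embryos (2.37-fold lower). Their light chain b2m had 1.48, 1.35 and 1.55 in knockdown embryos, against 0.671, 0.731 and 0.703 in control embryos (2.08-fold higher). Tapasin, tapbp.1, which loads peptides, was 3.34-fold lower (adjusted p = 9.62e-06). Of the immunoproteasome subunits psmb10 was lower, and psmb9a (2.49-fold) and psmb12 (1.92-fold) were higher. In the proteasome list 18 of 50 were higher and 11 lower (36% and 22%), but 25 higher and 4 lower under quantile normalization. The interferon-induced gene ifit8 was higher (1.34 on the log2 scale), but lost its call under 6 of 16 alternatives. Inflammation and complement genes had 12 of 43 higher and 8 lower, where tumour necrosis factor tnfb had 0.251, 0.22 and 0.185 in knockdown embryos, against 0.0726, 0.0627 and 0.0757 in control embryos (3.09-fold higher). The NF-kappaB subunit rela had probes at log2 -1.44 and 1.15.

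Several chaperones of the endoplasmic reticulum (ER) were lower, while several co-chaperones of the cytosol were higher. Of 50 genes for ER stress and ER chaperones 20 were lower and 9 higher (40% and 18%; median -0.21). The ER chaperone hsp90b1 had 3.0, 3.25 and 3.64 in knockdown embryos, against 6.29, 7.3 and 7.8 in control embryos (2.16-fold lower, adjusted p = 0.000246). Calreticulin calr was 1.82-fold lower (adjusted p = 0.564 on the authors' deposited table) and hyou1 1.77-fold lower on 1 of 3 probes. Higher members included serpinh1b, atf4a, atf4b and ero1a, of which ero1a lost its call under 6 of 17 alternatives. Of 51 heat shock genes 14 were higher and 9 lower (27.5% and 17.6%). Beside dnajb1b, its paralog dnajb1a had 1.57, 1.86 and 1.64 in knockdown embryos, against 0.8, 0.761 and 0.667 in control embryos (2.28-fold higher). The cofactor ahsa1b was 2.12-fold higher, and the stress-induced hsp70.3 2.17-fold higher with its call lost without any 1 of the 6 arrays (adjusted p up to 0.0811). The constitutive hspa8 (1.48-fold) and the small chaperone hspb1 (1.66-fold) were lower.

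Oxidative stress and glutathione genes had 24 of 59 lower and 6 higher (40.7% and 10.2%; median -0.14). Metallothionein mt2, which binds metal ions, had 3.59, 3.93 and 4.93 in knockdown embryos, against 13.0, 13.5 and 15.7 in control embryos (3.41-fold lower, adjusted p = 1.53e-05). The stress sensor keap1b was 2.09-fold lower on 1 of 4 probes. Mitochondrial respiratory chain genes had 32 of 94 lower and 11 higher (34% and 11.7%), but 16 lower and 23 higher under quantile normalization. The complex III subunit uqcrc1 had 5.48, 5.65 and 6.24 in knockdown embryos, against 13.1, 12.5 and 13.6 in control embryos (2.26-fold lower), and cox6b1 of complex IV was 2.57-fold lower. Glycolysis had 11 of 42 lower and 7 higher, and sterol synthesis 7 of 29 each way, with pmvk, an enzyme of the mevalonate pathway, 2.23-fold higher.

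Genes that build the ribosome were more often higher than lower, and those that are part of it mostly lower. Of 83 ribosome biogenesis genes 44 were higher and 3 lower (53% and 3.61%; median 0.21), a median that stayed above 0 under all 6 scalings. The nucleolar gene sdad1 had 28.8, 30.2 and 28.0 in knockdown embryos, against 12.8, 13.5 and 13.6 in control embryos (2.18-fold higher, adjusted p = 3.6e-06). The genes mak16 (1.77-fold), gnl2 and pwp1 (1.56-fold each) were higher, and the small-subunit export factor ltv1 was 1.44-fold lower on 2 of 4 probes.

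Of 82 cytosolic ribosomal protein genes 75 were lower and 1 higher (91.5% and 1.22%; median -0.41). The gene rps9 had 113.0, 113.0 and 114.0 in knockdown embryos, against 216.0, 224.0 and 233.0 in control embryos (1.98-fold lower), and rpl3 was 1.6-fold lower, while rpl12 was 1.27-fold higher. This fall depends on the scaling, since quantile normalization gave 11 lower and 10 higher with a median of -0.01, and cyclic loess 49 lower. The probes of these genes are among the brightest on the arrays, with a median level of 7.87 on the log2 scale of relative signal. The 24 other genes at or above that level had a median change of -0.41, with 17 lower and 0 higher. Over genes below a level of 6 that are not ribosomal, bin medians lay between -0.08 and 0.01. What part brightness has in the fall was not tested. Of the translation factors 19 of 84 were higher and 22 lower, but 31 higher and 14 lower under quantile normalization and 32 and 17 under cyclic loess.

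**Figure D5:**
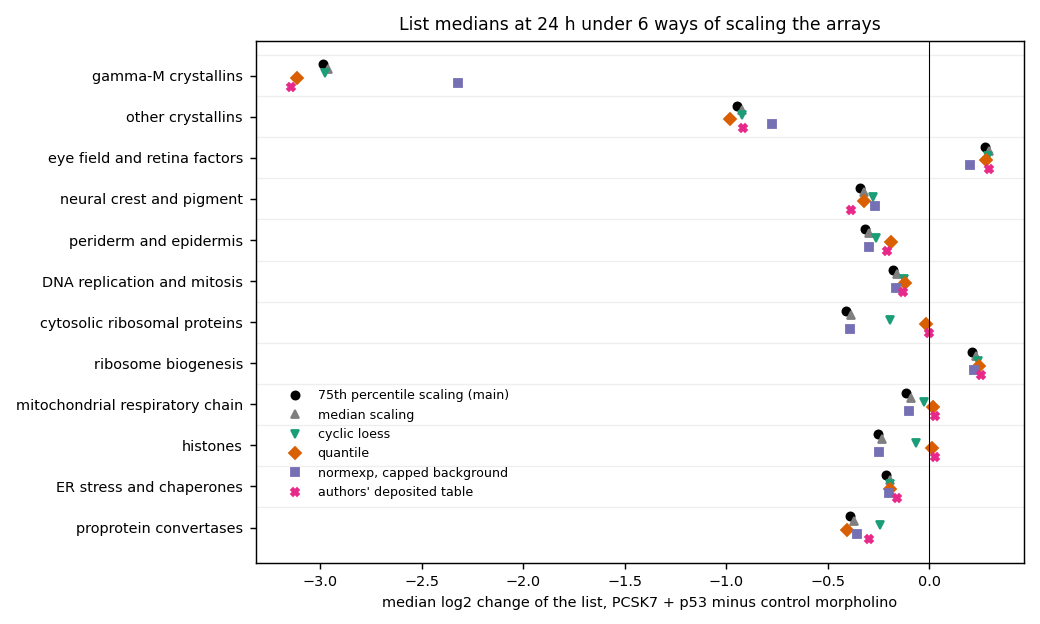
Median log2 change of knockdown over control embryos in 12 lists under 6 ways of scaling the arrays, each way with its own symbol. Cytosolic ribosomal proteins lie at -0.41 with the 75th percentile and near 0 with quantile scaling or in the authors' deposited table, while gamma-M crystallins and ribosome biogenesis keep their side under all 6.

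Of the genes for DNA replication and mitosis more were lower than higher, 45 of 95 against 9 (47.4% and 9.47%; median -0.18). Thymidine kinase tk1, which serves DNA synthesis, had 0.206, 0.246 and 0.228 in knockdown embryos, against 0.504, 0.494 and 0.54 in control embryos (2.27-fold lower, 2 of 3 probes). The licensing inhibitor gmnn, geminin, had 2.41, 2.28 and 2.22 in knockdown embryos, against 4.22, 4.09 and 3.94 in control embryos (1.77-fold lower). Cyclin E ccne2 was 1.83-fold and the mitotic kinesin kif20a 1.62-fold lower, each on 1 of 2 probes. The replication factor gins1 went against the list (2.9-fold higher, 1 of 3 control arrays above background, and no call under normexp). Histone genes had 9 of 19 lower and 4 higher, where h3c13a was 3.19-fold lower and h3f3d, a replication-independent H3, 1.91-fold higher. The median of the histones was -0.25, but 0.01 under quantile normalization.

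Of the splicing factors and hnRNPs more were higher than lower, with 36 of 99 higher and 22 lower (36.4% and 22.2%; median 0.05). Beside rsrp1, the regulator mbnl1 had 15.0, 14.3 and 12.4 in knockdown embryos, against 6.67, 6.08 and 5.97 in control embryos (2.22-fold higher, 2 of 4 probes), and srsf3a was 1.83-fold higher. The SR protein gene srsf2b had 6.39, 8.2 and 8.05 in knockdown embryos, against 15.0, 14.3 and 17.3 in control embryos (2.07-fold lower, 1 of 2 probes).

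Circadian clock genes, which light and time of day drive in fish embryos, had 7 of 38 higher and 10 lower. These shares (18.4% and 26.3%) were near the 21.7% and 25.9% of all genes. The gene per1a had 0.367, 0.384 and 0.345 in knockdown embryos, against 0.888, 0.887 and 1.07 in control embryos (2.59-fold lower), and the output factor tefb was 2.35-fold lower. The gene per2, which light induces, had 0.119, 0.143 and 0.15 in knockdown embryos, against 0.0746, 0.0675 and 0.0597 in control embryos (2.04-fold higher, 1 of 2 probes). The core factor clockb was 1.88-fold higher on 1 of 2 probes. The melatonin enzyme aanat2 was 2.06-fold and nfil3-5 1.83-fold lower. The clock time at which each pool was collected is not known here.

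Germ cell and egg transcripts were also mixed. Of 19 germ cell genes 6 were higher and 5 lower (31.6% and 26.3%), with the germ plasm gene dazl 1.78-fold higher and piwil1, which silences transposons, 2.98-fold lower. Of 46 egg and early embryo transcripts 16 were higher and 15 lower (34.8% and 32.6%). Beside npm2b, the egg coat gene zp3.2 had 1.24, 1.13 and 1.06 in knockdown embryos, against 0.504, 0.436 and 0.487 in control embryos (2.4-fold higher), and the maternal ligand gdf3 was 2.35-fold higher. The zinc finger gene cth1 was 2.41-fold lower on 3 of 4 probes, and wee2, a kinase of the oocyte, 1.84-fold lower.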

How the data were processed

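Whole-embryo RNA was hybridised to Agilent 1-colour arrays, 1 array per pool. The deposited scanner files give linear intensity values, background-subtracted in Feature Extraction by Agilent, per the file headers (builds 10.7.1.1 and 10.7.3.1; version 10.7.1 per the submitters' processing notes), with a flag for being well above background. The authors' deposited table of intensity values covers 19838 probes and was used only as an alternative.

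From these files, flagged spots were left out and spots of a probe averaged. Signals were divided by the 75th percentile of their array (relative signal) and turned into log2. limma 3.58.1 in R 4.3.3 (lmFit, eBayes, two-sided) fitted 4 group means over all 12 arrays, with 8 residual degrees of freedom and a median residual SD of 0.138 on the log2 scale, and p-values were adjusted after Benjamini and Hochberg over all 35062 kept probes. The number of arrays limits the precision. RefSeq accessions of the probes were matched to a RefSeq gene table of assembly GRCz12tu, which gave names to 26854 probes. A gene is shown by its brightest kept probe over the 6 arrays. 

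Named genes are the 20 largest rises and falls with a call among genes above background on all 6 arrays whose groups do not overlap, the 8 largest bounds each way, up to 4 members with a call per list and direction, and tgfb1a. Of these genes 1 is not reported here. The 54 gene lists and the genes described were chosen with earlier results of these data known. Groups share replicate numbers in the labels, but these do not pair the arrays at 24 h. There, deviations of same-numbered arrays from their group means correlated at -0.039, -0.068 and -0.084. The alternatives were other scalings and background corrections, other probe filters, the authors' deposited table, only the 6 arrays, slide or replicate as a block, the mean of all probes of a gene, and leaving out each array. The files hold no mean spot signal, so normexp ran on median signals, with the local background capped at the 99.9th percentile, a choice made after seeing the data.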

Additional observations from a re-analysis of the deposited data

Results flagged for a closer look

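Of the 39 leading genes described, 21 were detected at 6 h and had an effect of the morpholinos that differed between 24 h and 6 h. The difference itself was tested (limma, adjusted p under 0.05), and detection meant every array of at least 1 group at 6 h. Leading genes without that detection were not counted among the 21. Over all genes, whatever their detection at 6 h, the effect differed for 51.3%. The 21 had to be detected at 6 h as well, so 21 of 39 cannot be set directly against that share. The leading genes were chosen for large effects at 24 h, which enter the difference, so the choice itself favours larger effects at 24 h. Values are log2 effects at 24 h minus effects at 6 h. The knockdown arrays of each time lay on a slide of their own. Control arrays with the same replicate number shared a slide across the times, and the test of the difference did not use this pairing.

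Of the rises at 24 h, npm2b (2.356), rsrp1 (2.451), asb1 (2.158), ankar (1.538), mala.1 (1.504), dnajb1b (1.482), rbm48 (1.299), alox5b.3 (1.277) and fbxo18 (1.078) had larger effects at 24 h. At 6 h npm2b was already higher by 1.25, whereas rsrp1 had 0.05 (adjusted p = 0.852). The collagen chaperone serpinh1b went the other way (-2.72), with a rise of 4.72 at 6 h and of 2.00 at 24 h.

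Of the falls, capn12 differed most (-3.949), with a rise of 1.12 at 6 h (adjusted p = 0.00303) and a fall at 24 h. The fall of tmem30b (-2.599) also followed a small rise at 6 h (0.24, adjusted p = 0.0242). For psmb10 (-2.931), jac6 (-2.74), slc25a4 (-2.317), skic8 (-2.066) and dnajc19 (-1.933) the effect at 6 h had no call. The genes spata6l (-2.131), crygmxl2 (-1.859), tmem130 (-1.407) and cyb561d2 (-1.114) were lower at both times.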

How the results depend on the processing

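All counts of calls over probes and genes stayed within 1.5 times the main ones except those over probes on the authors' deposited table. That fit held only 16464 probes, against 35062 in the main one, and gave 7914 probe calls, 4117 higher and 3797 lower. Leaving out 1 array gave 13790 to 14808 probe calls (6286 to 6862 higher, 7380 to 8019 lower), 2287 to 2467 genes higher, 2680 to 2906 genes lower and 5873 to 6022 genes whose effect differs between times. The fit with a replicate block used only the 6 arrays at 24 h, which the replicate numbers do not pair. It gave 15798 probe calls, against 18251 for these 6 arrays without the block, and kept 4827 of the 5964 gene calls. Slide as a random block kept all 5964, with a consensus correlation of -0.121. At 24 h slide and morpholino group are confounded, so that fit cannot tell them apart. Capped normexp gave 2514 genes higher and 3841 lower and moved the median of all probes to -0.108, against -0.032. Of up to 403 named genes the call was lost for 56 without knockdown replicate 1, the most under any alternative. The sign turned for apoa1a on the authors' deposited table (0.079) and under quantile normalization (0.028). Under capped normexp it turned for bnip3 (-0.092), cryabb (-0.033), dnase1l1l (-0.130), eef1a1l3 (-0.168), grifin (-0.032), hist1h4l (-0.103), ifit8 (-0.096) and mstnb (-0.024), and over the mean of all probes of a gene for ggact.1 (-2.272), he1.3 (0.018), lhx2b (-0.052) and plp1b (0.214). For the first set the cause was not tested, and in the last the probes of a gene disagree. The sign of a list's median turned under at least 1 of 6 scalings for 21 lists, among them histones, the respiratory chain, heat shock proteins, interferon genes and the circadian clock. The direction with more calls turned in 10 of the 54 lists. Under normexp these were the BMP pathway, apoptosis and egg transcripts. On the authors' deposited table they were ribosomal proteins and lens factors, and under quantile normalization glia and matrix proteases. The respiratory chain, translation factors and yolk lipid carriers turned both under quantile normalization and on the authors' deposited table. Translation factors turned under cyclic loess as well. The normexp fit planned on mean spot signals was not run.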
